A study of Homo sapiens with 8 samples.

Results

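The 10 genes described here encode the core of the glutathione and thioredoxin antioxidant systems: NFE2L2, KEAP1, GCLC, GCLM, GSR, GPX4, SRXN1, TXN, TXNRD1 and NQO1. They were taken by gene symbol, and all 10 were found among the 16082 genes of the deposited count table. The samples were 4 shHNRNPC and 4 control samples of KYSE150, a long-established cell line from a human squamous carcinoma of the esophagus; their poly(A) RNA was sequenced, and the labels give no treatment for either group. In the shHNRNPC samples HNRNPC, a nuclear RNA-binding protein that packages nascent transcripts and shapes their splicing, was depleted by a short hairpin RNA. The labels give no hairpin sequence, no number of hairpins or clones, and no statement of what the control cells carried. They also do not say that the samples were separate cultures, so the p-values cover only the variation among these 8 samples, part of which may be technical.

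Glutathione is a cysteine-containing tripeptide that reduces peroxides and is itself oxidized in the process. Glutamate-cysteine ligase, made of the catalytic subunit GCLC and the modifier subunit GCLM, catalyses the limiting step of its synthesis, and glutathione reductase (GSR) regenerates it with NADPH. Thioredoxin (TXN) and thioredoxin reductase (TXNRD1) form a parallel NADPH-driven chain that keeps peroxiredoxins active, and sulfiredoxin (SRXN1) rescues peroxiredoxins that have been over-oxidized. GPX4 uses glutathione to reduce lipid hydroperoxides and thereby restrains ferroptosis, and NQO1 reduces quinones. Many of these genes are transcribed under NRF2, the factor encoded by NFE2L2, which binds antioxidant response elements and is marked for degradation by KEAP1. NRF2 is regulated largely at the protein level, which RNA counts do not measure.

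The core of the antioxidant response element reads TGACNNNGC. It was searched for on both strands of RefSeq promoter windows (GRCh38.p14), which run from 250 bases before to 50 bases after an annotated start. Windows were found for 9 of the 10 genes, and 3 of the 9 (33.3%) held the motif, against 27.1% of 107 other listed antioxidant genes and 18.7% of the 12920 genes of the count table that had a window. Per window, 4 of 14 windows of the 9 genes (28.6%) held it, against 13.3% of all 35116 windows. These shares are descriptions, and their difference was not tested. All matches found in the windows of the 9 genes are printed, and they lay in KEAP1, GCLM and TXNRD1. Whether a match goes with a change in RNA was not tested. Each is written 5′ to 3′ on the strand where the motif reads forward, with the motif in capitals and the flanking bases in lower case.
KEAP1, upstream match (chr19:10502817-10502825, minus strand): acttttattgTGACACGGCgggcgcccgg
KEAP1, downstream match (chr19:10502794-10502802, plus strand): caggtcaccaTGACTAAGCagagccgggc
GCLM (chr1:93909456-93909464, plus strand): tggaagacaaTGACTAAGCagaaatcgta
TXNRD1, upstream start (chr12:104215680-104215688, plus strand): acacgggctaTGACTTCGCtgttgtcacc
TXNRD1, at the upstream start (chr12:104215771-104215779, minus strand): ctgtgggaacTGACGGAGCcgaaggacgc
TXNRD1, downstream start (chr12:104286930-104286938, minus strand): agagtcagaaTGACAAAGCagaaatccac
The downstream KEAP1 match and the GCLM match are the same 9 bases. The GCLM match begins 34 bases before the annotated start. No match lay in the windows of NFE2L2, GCLC, GPX4, SRXN1, TXN or NQO1, and a match is a description of letters, not of binding.

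Library totals were 28323403 to 34913500 counts. HNRNPC had 33.8, 32.9, 32.5 and 36.5 CPM in shHNRNPC replicates 1 to 4, against 601, 590, 571 and 587 CPM in control replicates 1 to 4, where CPM are reads of a gene relative to the TMM-scaled library size. That left 5.78% of the control level (log2 fold change -4.12, SE 0.027, edgeR quasi-likelihood adjusted p = 5.72e-75; exact two-sided permutation p = 0.0286, the smallest that 70 assignments of 4 and 4 samples allow). Squamous epithelial markers were present in part. The lineage factor TP63 was at 129 ± 1.63 CPM in shHNRNPC samples and 176 ± 2.15 CPM in control samples, and the basal keratin KRT5 was at 1123 ± 13.7 and 565 ± 6.60 CPM (SD, n = 4 each). KRT14, the usual partner of KRT5, had only 4.89 ± 0.482 and 8.35 ± 0.661 CPM and KRT6A 1.96 ± 0.759 and 6.04 ± 0.752 CPM, and KRT13 (0.0439 and 0.0692 CPM on average) and SOX2 (0.125 CPM or less in every library) were near 0 and not tested. The remaining listed markers were well expressed in shHNRNPC and control samples: CDH1 (508 and 314 CPM on average), EPCAM (177 and 145), DSC3 (101 and 121) and DSG3 (73.5 and 108). Of the 10 squamous markers listed 8 were tested, of which 3 rose and 5 fell. Fibroblast markers summed to 8.38 to 9.50 CPM in shHNRNPC libraries and 3.65 to 3.88 CPM in control libraries, with COL1A1 the most abundant at 7.86 ± 0.222 and 3.26 ± 0.0917 CPM (SD, n = 4 each), followed by LUM at 0.597 ± 0.146 and 0.197 ± 0.0521 CPM; COL1A2, COL3A1 and DCN were at or near 0. Endothelial markers summed to 1.24 to 1.91 and 2.19 to 2.52 CPM, with VWF the most abundant at 0.765 ± 0.121 and 1.70 ± 0.0761 CPM, followed by CDH5 at 0.481 ± 0.0808 and 0.419 ± 0.140 CPM. Leukocyte markers summed to 103 to 106 CPM in shHNRNPC libraries and 213 to 226 CPM in control libraries. Nearly all of it was CD68, which had 104 ± 1.53 CPM in shHNRNPC samples and 216 ± 5.95 CPM in control samples, with 85.8% of its exon bases shared with another gene, and ITGAM had 0.358 ± 0.167 and 0.237 ± 0.172 CPM; PTPRC and CD3E were not analysed here. The part of these genes in the results below was not tested.

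SRXN1 rose most after knockdown of HNRNPC, followed by TXNRD1 and GCLM, and GCLC was the gene that fell. Of the 10 genes, all of which passed the filter on low counts, 7 rose, 1 fell and 2 did not pass the test (edgeR quasi-likelihood test, threshold of 0.05 on p adjusted by Benjamini-Hochberg over all genes tested); 1 of the 7, TXN, was called by a narrow margin that most alternatives did not keep. Of the 12001 genes tested 77.3% were called, 38.7% as higher and 38.6% as lower, so the share of called genes among the 10 was near the background, and the number called is not a result about them. Their median log2 fold change was 0.16, against -0.01 for all genes tested, and their median absolute log2 fold change was 0.25, below the 0.30 of all genes tested. A called change of at least 1.5-fold was found for 1 of the 10, SRXN1, against 21.9% of all genes tested, 9.61% as higher and 12.2% as lower. CPM of the groups did not overlap for 7 of the 10 genes, against 70.8% of all genes tested. Counts are shares of a library, so a change in RNA per cell and a change in the number of cells that carry it cannot be told apart.

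**Figure D1:**
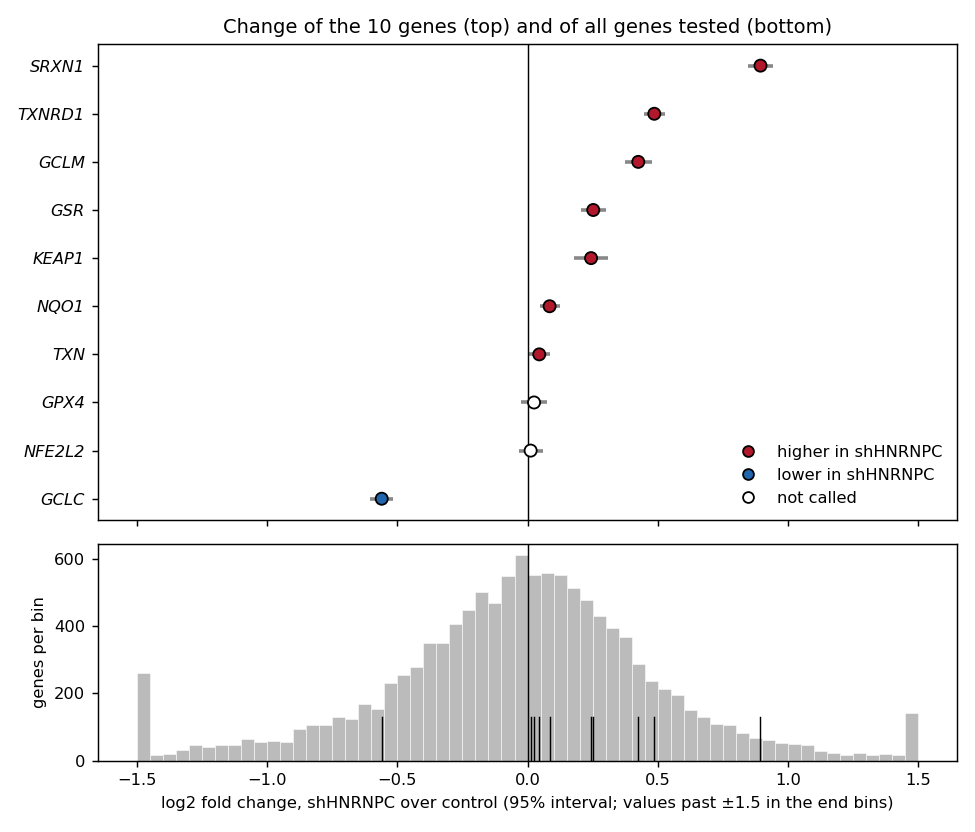
Upper panel: log2 fold change (shHNRNPC over control) of each of the 10 genes with its 95% interval, coloured by the edgeR call. Lower panel: the same measure for all 12001 genes tested, as genes per bin, with the 10 genes as short black lines; GCLC lies at -0.56 and SRXN1 at 0.89, and the others lie between 0.01 and 0.49.

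The regulators were considered first. NFE2L2 (chr2:177230303-177264727, minus strand; positions are of whole genes in RefSeq GRCh38.p14), which encodes NRF2, had 184, 180, 178 and 179 CPM in shHNRNPC replicates 1 to 4, against 180, 178, 180 and 177 CPM in control replicates 1 to 4. The groups overlapped and no difference was detected: the log2 fold change was 0.01, with a 95% interval of -0.03 to 0.06 (edgeR adjusted p = 0.645). In GENCODE release 29, 20.9% of its exon bases overlap other genes, mainly AC019080.1 on the same strand, with short stretches of AC079305.1 and AGPS on the opposite strand. KEAP1 (chr19:10486125-10503356, minus strand), the adaptor that presents NRF2 to a ubiquitin ligase, had 86.8, 86.0, 82.2 and 89.0 CPM in shHNRNPC replicates 1 to 4, against 74.8, 72.1, 71.1 and 72.3 CPM in control replicates 1 to 4. Every shHNRNPC library lay above every control library. KEAP1 rose by 0.24 on the log2 scale (SE 0.032, edgeR adjusted p = 4.64e-10), a 1.18-fold change.

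Within one library, the number of KEAP1 reads per NFE2L2 read does not depend on how libraries are scaled. It was 0.478 ± 0.0151 in shHNRNPC samples and 0.407 ± 0.00888 in control samples (SD, n = 4 each). The difference in log2 ratio was 0.23, and no shHNRNPC library reached down to a control library (exact two-sided permutation test, p = 0.0286, adjusted p = 0.0286 over 5 ratios). That p is the smallest that 70 assignments allow. KEAP1 separated fully while NFE2L2 hardly moved, so this p restates the rise of KEAP1 and adds no support to it. CPM of single genes did not overlap for 70.8% of all genes tested, and ratios of other gene pairs were not examined. Separation of the 5 ratios is therefore not read as particular to these pairs.

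The 2 subunits of glutamate-cysteine ligase moved in opposite directions. GCLC (chr6:53497341-53545101, minus strand), the catalytic subunit, had 173, 168, 175 and 168 CPM in shHNRNPC replicates 1 to 4, against 256, 251, 248 and 255 CPM in control replicates 1 to 4. It was lower in all 4 knockdown libraries than in any control library, at 67.9% of the control level (log2 fold change -0.56, SE 0.023, edgeR adjusted p = 2.32e-32). GCLM (chr1:93885199-93909430, minus strand), the modifier subunit, had 164, 169, 171 and 161 CPM in shHNRNPC replicates 1 to 4, against 120, 128, 122 and 126 CPM in control replicates 1 to 4. Every shHNRNPC library exceeded every control library for GCLM, and the change was 1.34-fold (log2 fold change 0.43, SE 0.026, edgeR adjusted p = 2.80e-23). Larger absolute changes than that of GCLC were seen in 24.3% of all genes tested, and larger ones than that of GCLM in 35.0%.

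The balance of subunit reads within a library therefore shifted by more than either gene alone. The libraries held 1.06, 0.994, 1.02 and 1.05 GCLC reads per GCLM read in shHNRNPC replicates 1 to 4, against 2.13, 1.97, 2.03 and 2.02 in control replicates 1 to 4. The difference in log2 ratio was -0.98, so that the ratio in shHNRNPC samples was 0.506 of that in control samples (exact two-sided permutation test, p = 0.0286, adjusted p = 0.0286 over 5 ratios, lower in 4 of 4 samples). GCLC was lower and GCLM higher in every knockdown library than in any control library, so this ratio had to separate. Its p therefore restates the results of the single genes and adds no support to them. These are reads per gene and not molecules, because the transcripts differ in length.

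GSR, which returns oxidized glutathione to its reduced form, had 192, 186, 186 and 182 CPM in shHNRNPC replicates 1 to 4, against 161, 151, 156 and 159 CPM in control replicates 1 to 4. All knockdown libraries were above all control libraries. The rise was 1.19-fold (log2 fold change 0.25, SE 0.024, edgeR adjusted p = 1.79e-14), close to the size seen for KEAP1, and 56.2% of all genes tested changed by more.

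**Figure D2:**
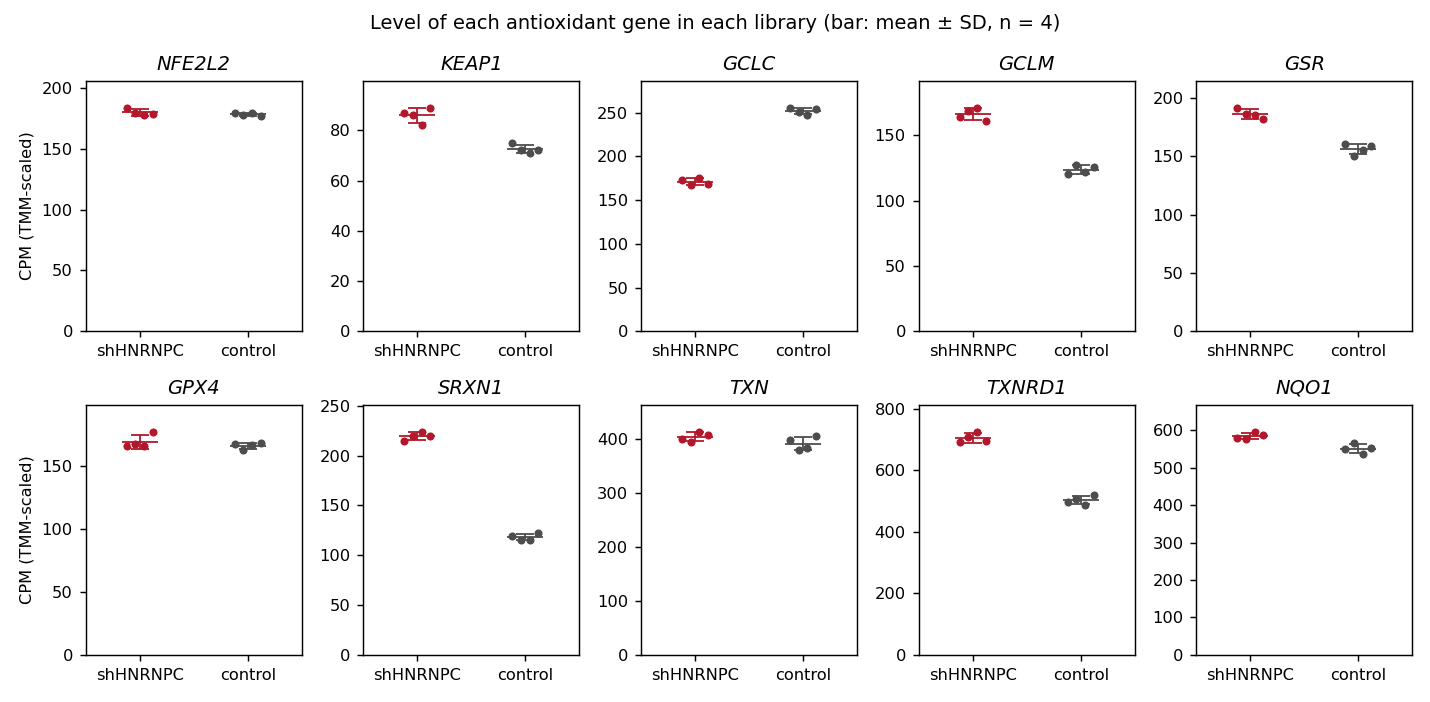
CPM (TMM-scaled, linear axes from 0) of each gene in each library, with the mean and SD of 4 libraries per group. Groups separate fully for KEAP1, GCLC, GCLM, GSR, SRXN1, TXNRD1 and NQO1, and overlap for NFE2L2, GPX4 and TXN.

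Genes of peroxide removal differed from each other. GPX4 (chr19:1103994-1106779, plus strand), the lipid hydroperoxide reductase, had 165, 167, 165 and 177 CPM in shHNRNPC replicates 1 to 4, against 167, 162, 166 and 168 CPM in control replicates 1 to 4. The ranges overlapped, with replicate 4 of the knockdown standing above the rest, and no difference was detected (log2 fold change 0.03, 95% interval -0.02 to 0.07, edgeR adjusted p = 0.353). SRXN1 (chr20:646615-653200, minus strand), which reduces over-oxidized peroxiredoxins, had 215, 220, 224 and 220 CPM in shHNRNPC replicates 1 to 4, against 119, 116, 116 and 122 CPM in control replicates 1 to 4. Its level in the knockdown libraries was 1.86-fold that of the controls (log2 fold change 0.89, SE 0.025, edgeR adjusted p = 1.81e-41), and 10.6% of all genes tested changed by more. In GENCODE, 85.0% of the exon bases of SRXN1 are shared with a gene model on the same strand (AL121758.1), so its reads may not all be from SRXN1 transcripts.

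PRDX1, an abundant peroxiredoxin that SRXN1 repairs, rose more than SRXN1 did. It had 478, 487, 496 and 482 CPM in shHNRNPC replicates 1 to 4, against 217, 223, 212 and 228 CPM in control replicates 1 to 4 (log2 fold change 1.14, SE 0.021, edgeR adjusted p = 6.66e-51), and 24.9% of its exon bases overlap another gene. There were 0.452 ± 0.00265 SRXN1 reads per PRDX1 read in shHNRNPC samples and 0.538 ± 0.0134 in control samples (SD, n = 4 each). The log2 ratio differed by -0.25 (exact two-sided permutation test, p = 0.0286, adjusted p = 0.0286 over 5 ratios), with no overlap between the groups.

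In the thioredoxin pair the reductase rose and thioredoxin itself hardly moved. TXN (chr9:110243810-110256507, minus strand), the small dithiol protein that passes electrons to peroxiredoxins and ribonucleotide reductase, had 401, 396, 415 and 408 CPM in shHNRNPC replicates 1 to 4, against 399, 381, 384 and 406 CPM in control replicates 1 to 4. The groups overlapped and the difference was 1.03-fold (log2 fold change 0.05, 95% interval 0.00 to 0.09, edgeR adjusted p = 0.0439). That call did not hold under 13 of the 18 alternatives tried (adjusted p from 0.00493 to 1). Among single libraries, it was lost without shHNRNPC replicate 3 or 4 (adjusted p = 0.137 and 0.0751) and without control replicate 2 or 3 (adjusted p = 0.218 and 0.122). GENCODE also lists 7 pseudogenes named after TXN, with which reads could be shared.

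TXNRD1 (chr12:104215779-104350307, plus strand), the selenoprotein that reduces thioredoxin, had 692, 709, 727 and 695 CPM in shHNRNPC replicates 1 to 4, against 498, 507, 488 and 522 CPM in control replicates 1 to 4. Knockdown libraries were uniformly higher, by 1.40-fold (log2 fold change 0.49, SE 0.020, edgeR adjusted p = 1.02e-31). Reads of TXNRD1 per TXN read were 1.74 ± 0.0382 in shHNRNPC samples and 1.28 ± 0.0357 in control samples (SD, n = 4 each), a log2 difference of 0.44. Reads of TXNRD1 per GSR read, which set the NADPH-dependent reductases of the thioredoxin and glutathione chains against each other, were 3.79 ± 0.130 and 3.22 ± 0.127 (SD, n = 4 each), a log2 difference of 0.23. For these ratios also the groups did not overlap (exact two-sided permutation test, p = 0.0286 and adjusted p = 0.0286 over 5 ratios for each). TXNRD1 separated fully while TXN hardly moved, so the p of the TXNRD1 to TXN ratio restates the rise of TXNRD1 and adds no support to it.

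**Figure D3:**
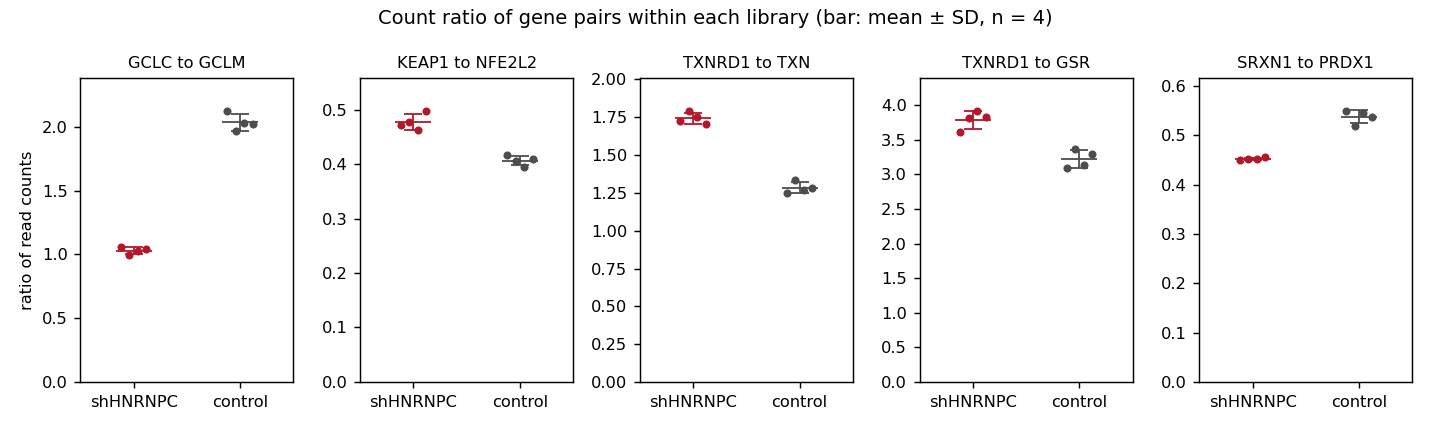
Ratio of read counts of gene pairs within each library (linear axes from 0), with the mean and SD of 4 libraries per group. The GCLC to GCLM ratio is near 1.03 in shHNRNPC samples and 2.04 in control samples. The other ratios differ less, and none overlaps between the groups. Ratios of other gene pairs were not examined, so no background share stands beside these.

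NQO1 (chr16:69709401-69726560, minus strand), the quinone reductase widely used as a readout of NRF2 activity, had 580, 576, 597 and 587 CPM in shHNRNPC replicates 1 to 4, against 549, 567, 537 and 553 CPM in control replicates 1 to 4. The groups did not overlap, but the difference was 1.06-fold (log2 fold change 0.08, SE 0.019, edgeR adjusted p = 6.48e-05), and 83.7% of all genes tested changed by more. The antisense gene AC092115.2 shares 17.7% of its exon bases.

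When the test asked for a change of more than 1.2-fold rather than any change (edgeR glmTreat), SRXN1, TXNRD1 and GCLM remained higher and GCLC lower, that is 4 of the 10 genes against 41.9% of all genes tested. KEAP1 (adjusted p = 0.770), GSR (0.688), NQO1 (1) and TXN (1) did not pass that test. Replicates of the 10 genes lay close together, with a coefficient of variation of 0.731% to 3.32% within groups.

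Levels between genes were compared as CPM per kilobase of annotated exons. TXN was the most abundant in both groups, at 354 ± 7.27 CPM per kilobase in shHNRNPC samples and 344 ± 10.6 in control samples, followed by NQO1 at 180 ± 2.79 and 170 ± 3.73 (SD, n = 4 each). TXNRD1 followed in shHNRNPC samples, above GPX4 (105 ± 2.35 and 83.5 ± 2.77 CPM per kilobase), whereas in control samples GPX4 stood above TXNRD1 (82.1 ± 1.24 and 75.1 ± 2.13). In shHNRNPC samples the ranges of GPX4 and SRXN1, and those of GCLM and NFE2L2, overlapped, and the other neighbours in the order did not; in control samples no neighbours overlapped. The order at positions below NQO1 depends on the length used: per kilobase of the longest coding transcript, a length chosen after the data were seen, GPX4 stood above TXNRD1 in both groups, at 168 ± 5.59 and 165 ± 3.69 CPM per kilobase with overlapping ranges in shHNRNPC samples, and at 165 ± 2.50 and 118 ± 3.34 in control samples.

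The list of glutathione synthesis and cysteine supply, outside the ligase itself, also holds genes of glutathione breakdown and transport. Of its 13 tested genes 4 rose, 8 fell and 1 did not pass (median log2 fold change -0.25, against -0.01 for all genes). The 4 that rose were LANCL1 (0.56), GGCT (0.48, 27.6% of exon bases overlapping), ABCC1 (0.27) and CHAC2 (0.26). The counts of this list and of those that follow stand against 77.3% of all tested genes called, 38.7% as higher and 38.6% as lower, and no list was tested for a difference from that background. SLC7A11, the cystine transporter that feeds cysteine into the pathway of GCLC, was at 94.7 ± 2.84 CPM in shHNRNPC samples and 245 ± 6.87 CPM in control samples (log2 fold change -1.37). CTH, which makes cysteine from cystathionine, was at 23.7 ± 1.61 and 42.1 ± 0.709 CPM (-0.83). OPLAH, which recycles oxoproline to glutamate, was at 2.59 ± 0.509 and 5.10 ± 0.877 CPM (-0.98). CHAC1, which degrades glutathione, was also lower, at 3.35 ± 0.307 and 16.1 ± 0.545 CPM (-2.26; all SD, n = 4 each, edgeR adjusted p at most 3.85e-08). GSS, glutathione synthetase, acts directly after GCLC and GCLM; it was named after its values were seen, and at 121 ± 1.29 and 180 ± 3.70 CPM (-0.57, adjusted p = 9.88e-31) its change was near that of GCLC.

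Around SRXN1, GPX4 and the thioredoxin pair, 7 of 11 tested peroxidases, peroxiredoxins and glutaredoxins rose and 2 fell (median 0.17). Besides PRDX1, GLRX3 rose (0.64), while PRDX5 (-0.54) and PRDX3 (-0.49), peroxiredoxins of mitochondria, fell. Of 11 other thioredoxin system genes 6 rose and 2 fell (median 0.09), with MSRB1, a selenoprotein methionine sulfoxide reductase (0.58), TXNDC17 (0.44, 36.9% of exon bases overlapping), TXNL1 (0.34) and TXNRD3 (-0.40) changing most. Among 9 glutathione transferases 4 were higher and 2 lower (median -0.05); MGST2 (0.53), GSTCD (0.37) and MGST3 (0.19) rose and GSTO2 fell (-0.38). Of superoxide and hydrogen peroxide enzymes 3 of 4 rose and 1 fell (median 0.42). SOD2, the mitochondrial superoxide dismutase, was at 132 ± 2.77 CPM in shHNRNPC samples and 68.9 ± 1.88 CPM in control samples (0.94), SOD1, its cytosolic counterpart, changed by 0.62, and CAT, catalase, by 0.22. CCS, the copper chaperone of SOD1, changed by -0.17 (edgeR adjusted p = 0.0329), a call lost without shHNRNPC replicate 2 or 4 (adjusted p = 0.0578 and 0.0755) or control replicate 1 or 4 (adjusted p = 0.0550 and 0.124).

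Of 12 listed partners and regulators of NRF2 other than NFE2L2 and KEAP1, 4 were higher and 8 lower (median -0.12), where 77.3% of all tested genes were called. SQSTM1, the autophagy receptor that can sequester KEAP1, was at 1141 ± 1.51 CPM in shHNRNPC samples and 722 ± 12.4 CPM in control samples (log2 fold change 0.66), with 22.0% of its exon bases overlapping another gene. NFE2L3, a relative of NFE2L2, rose by 0.73. BTRC, a ubiquitin ligase adaptor that can also bind NRF2, was at 22.3 ± 0.751 and 47.3 ± 1.36 CPM (-1.08), and the small MAF protein MAFF changed by -0.76.

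Of 24 further NRF2 target genes tested, 14 rose and 5 fell (median 0.22), so that 79.2% were called, near the 77.3% of all tested genes, of which 38.7% were higher and 38.6% lower. HMOX1, heme oxygenase, was at 30.8 ± 1.89 CPM in shHNRNPC samples and 12.5 ± 0.674 CPM in control samples (1.31), the epoxide hydrolase EPHX1 changed by 0.79 and the carbonyl reductase CBR3 by 0.73 (42.2% of exon bases overlapping), whereas the exporter ABCC3 fell by 0.79 on the log2 scale. NQO1 and GCLC therefore lay below the median of that list, and SRXN1, TXNRD1 and GCLM above it, as values and without a test of the difference. Of 12 genes that supply the NADPH used by GSR, TXNRD1 and NQO1, 6 rose and 4 fell (median 0.05): IDH2 (0.82) rose, and NADK (-0.54) and MTHFD2 (-0.60, 33.2% of exon bases overlapping) fell.

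TXNRD1 and GPX4 carry selenocysteine and need a dedicated machinery for its insertion. Of 8 genes listed for that machinery 1 rose and 6 fell (median -0.27), against 38.7% and 38.6% of all tested genes. The call of 1 of the 6, PSTK, was lost without single libraries. SARS1, which charges the selenocysteine tRNA with serine as well as serving ordinary serine codons, was at 227 ± 2.95 CPM in shHNRNPC samples and 423 ± 5.42 CPM in control samples (-0.90). SEPSECS, which completes selenocysteine on its tRNA, changed by -0.62. SEPHS1 rose (0.44), whereas SEPHS2 fell (-0.29). PSTK, the kinase of the same pathway, changed by -0.32 (edgeR adjusted p = 0.0349), a call lost without shHNRNPC replicate 1 or 2 (adjusted p = 0.0771 and 0.0824) or control replicate 1, 2 or 3 (adjusted p = 0.0699, 0.101 and 0.0917). Of 10 other selenoprotein genes 7 rose and 2 fell (median 0.22). DIO2 rose most, but at low levels, with 0.479 ± 0.163 CPM in shHNRNPC samples and 0.206 ± 0.0538 CPM in control samples. Where the higher group averaged 1 CPM or more, SELENOW rose most (1.04). It was at 89.0 ± 2.48 CPM in shHNRNPC samples and 43.3 ± 1.99 CPM in control samples. SELENOK (0.55) and SELENOF (0.28) were also higher, and SELENOI (-0.80) was lower. Of 10 genes of lipid peroxidation, the setting in which GPX4 acts, 6 rose and 1 fell (median 0.09). AIFM2, which encodes the ferroptosis suppressor FSP1 that works beside GPX4, was at 98.2 ± 2.39 CPM in shHNRNPC samples and 58.0 ± 1.87 CPM in control samples (0.76); LPCAT3 (0.37, 65.6% of exon bases overlapping) and PEBP1 (0.33) rose and DHODH (-0.34) fell.

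**Figure D4:**
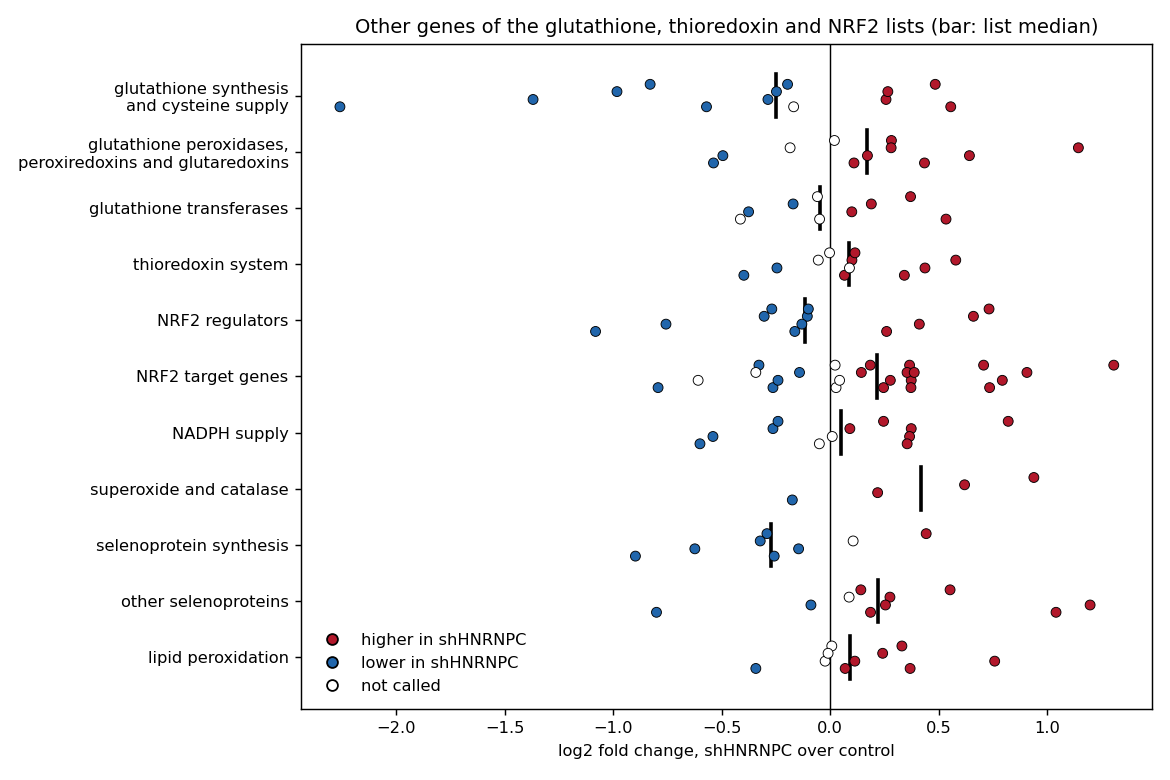
log2 fold change (shHNRNPC over control) of every tested gene of 11 lists around the 10 genes, coloured by the edgeR call, with a bar at each list's median. The list of glutathione synthesis and cysteine supply, which also holds genes of glutathione breakdown and transport, has a median of -0.25. The list of selenoprotein synthesis has a median of -0.27, and that of superoxide and catalase 0.42. No list was tested as a set.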

How the data were processed

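The authors deposited whole-number read counts of 16082 genes in 8 samples, with no normalisation. Per the labels' protocols, RNA was extracted with TRIzol and libraries were made with a VAHTS Universal kit. Low-quality reads were removed with fastp, per the series design text, and hg38 is the genome build that the submitters' processing notes name. For alignment, counting, annotation and strand the methods were not given in the sources used here, so reads of overlapping genes cannot be separated. Library totals were 28323403 to 34913500 counts. Replicates differed by more than sampling noise (chi-square per degree of freedom 2.66 to 3.70 within groups).

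Genes were kept with edgeR's filterByExpr (minimum count 10, minimum total 15), scaled with TMM factors and tested with edgeR 4.0.16 (glmQLFit, robust, and glmQLFTest; R 4.3.3) on the group term, with Benjamini-Hochberg adjustment over 12001 genes at 0.05. SE is the absolute log2 fold change over the square root of F. Ratios used raw counts and exact permutation tests over 70 assignments. DESeq2 1.42.0 was an alternative. On simulated counts for 11967 genes of this comparison, edgeR recovered 46 of 50 genes changed 1.25-fold and called 14 of 11767 unchanged genes; this does not check a setting where most genes change. Exon lengths and overlaps came from GENCODE release 29, positions and promoters from RefSeq.

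The members and lists were chosen with earlier results of these data known. Named genes are the 10 genes, HNRNPC, PRDX1, the other genes of the ratios, genes whose exons overlap a member's, the 2 most abundant markers of each other cell type, and up to 4 called genes per list, ranked by absolute log2 fold change, where the higher group averaged 1 CPM or more. Some genes that the rule takes are left unreported. TP63, KRT5, KRT6A, KRT13, KRT14, SOX2, CDH1, EPCAM, DSC3, DSG3, DIO2 and GSS were chosen after their values were seen. So were LANCL1, GGCT, ABCC1, CHAC2 and SEPHS2.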

Additional observations from a re-analysis of the deposited data

Results flagged for a closer look

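Of 132 groups of 4 libraries examined, 5 held a library far from the other 3, by the gap to its nearest neighbour over the whole range; chance gives about 1 in 20. GPX4 had 177 CPM in shHNRNPC replicate 4, against 165 to 167 CPM in the other knockdown libraries (share of the range 0.876). GSTCD had 29.5 CPM in shHNRNPC replicate 1, against 26.6 to 27.0 CPM in the others (0.888), and 23.4 CPM in control replicate 4, against 20.3 to 20.8 CPM in the others (0.831). BTRC had 45.2 CPM in control replicate 4, against 47.8 to 48.1 CPM (0.88). CBR3 had 14.5 CPM in shHNRNPC replicate 1, against 16.8 to 17.3 CPM (0.846).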

How the results depend on the processing

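Across 18 alternatives to the edgeR fit, GCLC, GCLM, SRXN1 and TXNRD1 kept their direction and call in all. KEAP1, GSR and NQO1 did so except under glmTreat, and TXN is described with its values above. The log2 fold change of NFE2L2, which was not called, turned to -0.015 with upper-quartile factors and -0.0096 with library totals only, and that of GPX4, also not called, to -0.0017 with upper-quartile factors. Testing against a fold of 1.2 with glmTreat by construction lowered the calls to 5027 genes in all, 3 of the 10 higher, and 50 of the listed genes, against 9275, 7 and 98. Leaving out each replicate gave 9048 to 9151 genes called, 6 to 7 of the 10 higher, 1 to 1 lower, 93 to 97 listed genes and 5 to 5 ratios. Same-numbered samples did not deviate together (correlations -0.055 to 0.017). No pairing by number was thus detected, but this check cannot exclude that such samples were prepared together. With a replicate block 9219 genes, 6 higher and 1 lower of the 10 and 97 listed genes were called. The 5 ratios kept their sign, but 0 passed with a replicate block (sign flips, smallest possible p 0.125). The same held with shHNRNPC replicates 1 and 4, or 2 and 3, left out (permutation, smallest possible p 0.0667). Those designs were too small to pass. In a principal component analysis of log2 CPM, component 2 (4.51% of variance) put shHNRNPC replicates 1 and 4 at 14.45 and 6.13. Replicates 2 and 3 lay at -8.98 and -12.06, and controls from -2.25 to 2.1. The source of this split was not tested.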
